A study of Mus musculus with 7 samples.

Results

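Cortical neurons of wild-type mice that had been depolarized with KCl for 10 min were compared with control neurons 24 h later, by the splicing and the level of their RNA. The comparison holds 4 of the 7 samples of the series, namely every RNA library: control replicates 1 and 2 and KCl replicates 1 and 2, chosen by their titles. The neurons came from ICR embryos at embryonic day 16 and were treated on day 11 in culture. For the pulse, 30% of the medium was a buffer with 170 mM salt, which gave 50 mM KCl in the treated dishes. Control dishes received the same kind of buffer with NaCl, so both groups had the change of medium. Both groups are primary cultures of embryonic cortex. No sorting of cells is named in the labels. Nor is it stated that replicates were grown separately, so p-values reflect the spread of these 4 samples alone, which may be technical.

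Alternative splicing joins the exons of 1 gene in different ways. A cassette exon is kept or skipped, 1 of a pair of mutually exclusive exons is chosen, an intron is retained, or the edge of an exon is moved to another 5′ or 3′ splice site. Neurons are known for very short cassette exons (microexons) in synaptic and cytoskeletal genes, and for exons whose inclusion follows electrical activity. The purpose stated for the RNA libraries was to find splicing induced by activity.

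Both replicate tables identified 11814 events in 6117 genes. Summed over every event of a library, including those not matched, the counts were 3566066 to 5385345. Overlapping events can count the same read more than once. The measure used is the inclusion read share, the reads of the longer or included form in percent of the reads of both forms. It is not corrected for length, so shares are set side by side only within an event. Where 4 values follow each other, they are those of replicates 1 and 2 of control and then of replicates 1 and 2 of KCl. A share of 50% has a Wilson 95% interval of 29.9% to 70.1% on 20 reads and of 43.1% to 56.9% on 200 reads, which covers counting error only. Positions are those of the build mm10, counted from 1.

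Markers of neurons were detected in all 4 libraries, as the label of the cultures says, but the libraries differed in their levels. Over the 8 of 21 listed neuron markers that could be measured, the summed level was 7282 and 7055 CPM (scaled reads per 1000000) in control and 659 and 2420 in KCl. All 8 were lower in KCl by their group means. Markers of other cells had higher sums in KCl. Those of astrocytes (8 of 14 measured) summed to 17391 and 12879 CPM in control and 48576 and 24426 in KCl, mostly from Apoe. Those of the oligodendrocyte lineage (6 of 15) stood at 322 and 342 and then at 2002 and 1099. Those of fibroblasts, pericytes and endothelium (6 of 16) stood at 513 and 726 and then at 3396 and 2879. For progenitors and dividing cells (5 of 12) the sums were 256 and 449 and then 734 and 785. No microglial marker of the 10 listed had an event to measure. KCl replicate 1 lay farthest from the controls in the neuron, astrocyte, oligodendrocyte and fibroblast lists. In bulk samples, fewer cells of a type and less RNA per cell cannot be told apart. These values move with the results below, and their part in the results was not tested.

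The first question was whether both replicate pairs, which share no library, gave the same splicing differences. Shares were taken for the 7111 events with at least 20 reads in every library. An event met the 20-point rule if its share differed between KCl and control by at least 20 percentage points in the same direction in both pairs. The rule was met by 191 events in 167 genes, which is 2.69% of the events. In 72 events (1.01%) the share was higher in KCl and in 119 (1.67%) it was lower. Only 6 events differed by 20 points in opposite directions. Pair 1 alone had 573 events with 20 points and pair 2 had 314, of which 33.3% and 60.8% met the rule. Across events the differences of the pairs had a Pearson r of 0.530, given as a description, since events are not independent replicates.

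Replicates of 1 group also differed. The SD of the difference over events was 11.8 points in pair 1 and 8.36 in pair 2, against 8.62 between the control libraries and 9.18 between the KCl libraries. In the 191 events the median absolute difference was 39.3 points in pair 1 and 27.1 in pair 2, while the controls were 7.66 apart and the KCl libraries 11.1. These medians are a description only, since the rule picked the events for large differences in both pairs. Pair 1 had the larger difference in 150 of the 191 events. The smaller of the 2 pair differences was 20 points in the event just inside the rule and 19.95 in the one just outside.

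**Figure D1:**
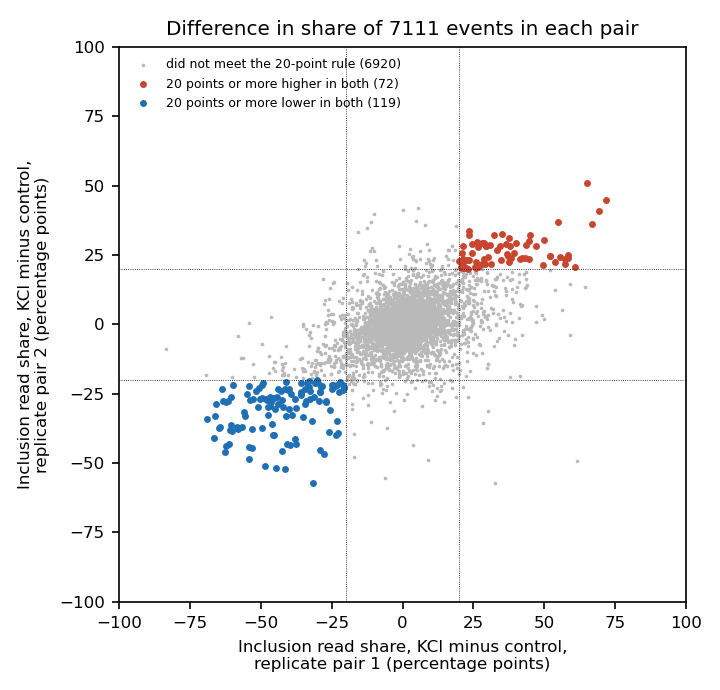
Each point is 1 of 7111 splicing events, placed by the KCl minus control difference in inclusion read share (percentage points) in replicate pair 1 (x axis) and pair 2 (y axis). The 72 red points were at least 20 points higher and the 119 blue points at least 20 points lower in both pairs, and the grey points, which did not meet the rule, include 6 events of opposite direction.

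No single event passed the test across events. edgeR's quasi-likelihood test on the reads of both forms called 0 of 10088 events (0%) in 5506 genes, and the lowest p adjusted by Benjamini-Hochberg was 0.0977. Before adjustment 929 events (9.21%) had a p under 0.05, of which 428 (4.24%) were higher and 501 (4.97%) lower in KCl. DESeq2 called 12 and limma 0. Of the 191 events that met the 20-point rule, which used the same reads, 167 had an unadjusted p under 0.05, a description only. The differences below are therefore given as measured values. The adjusted p of any event named below lies at or above 0.0977 in this edgeR test, which had no term for the replicate number. A model with that term called more events, as given under the dependence on processing.

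Pyruvate kinase M gave an event with many reads in every library. Pkm codes for the last enzyme of glycolysis and chooses between a pair of mutually exclusive exons that give the M1 and the M2 enzyme. The M1 form is known from neurons and muscle, and the M2 form from dividing cells and astrocytes. Which exon the inclusion reads stand for was settled from the tables. Where the reads of a mutually exclusive pair matched those of a cassette exon, genes on the plus strand always matched the first listed exon (129 and 168 pairs in the tables of replicates 1 and 2). Genes on the minus strand always matched the second (116 and 141). Inclusion is thus the exon nearer to the start of the transcript, which in Pkm is chr9:59675029-59675195, upstream of chr9:59675568-59675734. This upstream exon, the M1 exon, held 71.7% and 63.0% of 4063 and 1860 reads in control. In KCl it held 11.1% and 26.8% of 2819 and 2002 reads. Both control shares lay above both KCl shares, with a log2 odds ratio of -3.28 (SE 0.72, edgeR adjusted p = 0.11). The reads of both exons together were 2831 and 998 CPM in control and 1929 and 1133 in KCl, which overlapped.

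Neurexins are presynaptic adhesion molecules, and the insert at their splice site 4 sets which postsynaptic partners they bind. The 90-base exon of Nrxn2 (chr19:6513716-6513805), which has the length of that insert, held 36.0%, 42.4%, 63.7% and 59.2% of 1398, 1434, 634 and 822 reads. Both KCl libraries were above both controls, but pair 2 missed the 20-point rule (log2 odds ratio 1.31, SE 0.64, edgeR adjusted p = 0.544). The matching exon of Nrxn3 (chr12:90199147-90199236) was at 87.9% and 88.7% in control and at 91.7% and 94.1% in KCl. Nrxn2 and Nrxn3 thus had the same sign in both pairs, with the smaller differences in Nrxn3, where control shares were already high. A shorter exon of Nrxn2, of 27 bases (chr19:6488784-6488810), went the other way and met the rule. It held 52.9%, 48.1%, 21.1% and 13.2% of 53 to 79 reads.

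Other adhesion molecules had 6 genes with an event that met the rule, in 6 of 57 events (10.5%, against 2.69% in all). Ptprf and Ptprs code for receptor phosphatases that organize synapses. A 306-base Ptprf exon (chr4:118231486-118231791) held 63.4%, 61.9%, 96.8% and 88.7% of 361 to 1157 reads, and a 59-base Ptprs exon (chr17:56429099-56429157) held 25.8%, 28.7%, 81.5% and 52.9%. Inclusion was higher in both KCl libraries of both genes. In Cadm1, an adhesion molecule of synapses and axons, the inclusion share of a mutually exclusive pair was 37.2%, 47.9%, 82.3% and 80.1%, and which exon that is was not established. Lower shares were measured in Nfasc, Tenm3 and Agrn. Neurofascin (Nfasc) anchors the axon initial segment, and its 237-base exon (chr1:132588074-132588310) held 74.1%, 65.2%, 9.8% and 28.2%. A 21-base exon of the teneurin gene Tenm3 (chr8:48287133-48287153) held 30.2% and 27.2% in control, and 0% and 7.04% in KCl. In Agrn, the gene of agrin, a 793-base exon held 32.2%, 48.8%, 8.97% and 27.1%.

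Genes of the neuronal cytoskeleton held the most events that met the rule among the lists examined, 16 of 87 (18.4%, against 2.69% in all). This list also had the most events with 20 reads, and some genes gave more than 1 of the 16. Ankyrin-2 (Ank2), which links membrane proteins to spectrin, had 3 such exons in both directions. Its 99-base exon (chr3:126963383-126963481) held 72.4%, 74.3%, 5.92% and 33.2% of 316 to 443 reads, and its 24-base exon (chr3:127052226-127052249) held 60.5%, 61.9%, 7.35% and 17.4%. Its 183-base exon (chr3:126928665-126928847) held 51.9%, 50.8%, 95.5% and 79.3% of 987 to 2331 reads. The controls lay within 2 points of each other in each of the 3 exons, and the KCl libraries on 1 side of them. Dystonin (Dst), a giant linker of cytoskeletal filaments, had higher shares of a 111-base exon, with 36.8%, 48.4%, 91.5% and 85.2%, and of a 327-base exon, with 51.9%, 59.8%, 86.1% and 88.2%.

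The microtubule-associated proteins Map2, of dendrites, and tau (Mapt), of axons, had higher shares. A 93-base Map2 exon (chr1:66431527-66431619) held 17.3%, 10.1%, 69.5% and 34.8%, and a 198-base Mapt exon (chr11:104305212-104305409) held 8.45%, 12.0%, 31.1% and 35.2%. The distance between the KCl libraries was large in Map2 and small in Mapt. Shares were lower in Clasp1 and Clasp2, which stabilize microtubule ends. A 24-base Clasp2 exon held 62.1%, 79.5%, 20.4% and 27.4%, and a 27-base Clasp1 exon held 66.7%, 51.2%, 11.9% and 26.0%. Motor proteins followed the same direction. A 60-base exon of the dynein chain gene Dync1i2 (chr2:71233649-71233708) held 54.4%, 63.5%, 9.18% and 23.6%. An alternative 3′ splice site of the kinesin gene Kif1b held 75.9%, 77.6%, 30.0% and 41.7%. Short exons of Epb41l1 and Epb41l3, which tie spectrin to actin, had lower shares too. The 36-base Epb41l1 exon held 82.1%, 87.8%, 13% and 53.7%.

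Actin regulators with an event that met the rule were Abi2, Actn4, Dbn1, Kalrn and Pdlim7. Drebrin (Dbn1) binds actin in dendritic spines, and its 138-base exon (chr13:55476636-55476773) held 55.5%, 52.4%, 2.58% and 25.4% of 815 to 1735 reads. This was lower in both KCl libraries, and an overlapping alternative 3′ splice site, which shares reads with it, gave 45.1%, 43.4%, 5.02% and 20%. An 84-base exon of Abi2, of the complex that starts actin branching, held 92.0%, 79.9%, 30.2% and 52.4%. In Actn4, which codes for an actinin, the exon nearer to the transcript start of a mutually exclusive pair held 47.8%, 55.7%, 85.5% and 78.1%.

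Membrane traffic and endocytosis were the list with the highest share of events that met the rule, 11 of 48 (22.9%, against 2.69% in all). Synaptojanin-1 (Synj1), a lipid phosphatase that uncoats endocytic vesicles, had lower inclusion of a 24-base exon (chr16:90971564-90971587), with 71.1%, 65.7%, 15.2% and 34.0%. Its alternative 3′ splice site at chr16:90973910-90974075 had 3.62% and 2.51% in control and 50.8% and 30.8% in KCl, so the 2 events went in opposite directions. A 54-base exon of clathrin light chain A (Clta, chr4:44030215-44030268) held 45.8%, 39.5%, 5.25% and 15.8% of 261 to 609 reads. Lower inclusion in both KCl libraries was also measured for short exons of Ap1b1 and Ap2a1, subunits of clathrin adaptors. The 21-base Ap1b1 exon held 51.5%, 40.4%, 12.5% and 7.69%. A 9-base exon of Myo5a, a vesicle motor, held 59.4%, 38.3%, 5.0% and 16.1%. Snap91, a clathrin assembly protein of nerve endings, had a 15-base exon at 86.0%, 69.8%, 36.4% and 43.1%. An alternative 3′ splice site of the same gene had 28.8%, 41.1%, 89.7% and 61.8%.

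Exons of pre- and postsynaptic scaffolds went in both directions. Erc1, an active zone scaffold, had a 132-base exon (chr6:119713680-119713811) at 23.9%, 28.2%, 93.2% and 69.0% and a 67-base exon (chr6:119618846-119618912) at 68.5%, 75.2%, 15.4% and 37.5%. Gephyrin (Gphn), the scaffold of inhibitory synapses, had a 108-base exon (chr12:78493950-78494057) at 29.1%, 17.9%, 69.1% and 47.1%. Homer1, a postsynaptic scaffold, had a 36-base exon (chr13:93386345-93386380) at 86.1%, 86.8%, 54.5% and 29.7% of 22 to 53 reads. The gap between the KCl libraries of Homer1 rests on 22 and 37 reads. In Dlgap4, which binds the scaffold of excitatory synapses, 5 overlapping events at 1 locus met the rule. The share of its 72-base exon (chr2:156748332-156748403) was 43.4%, 46.1%, 93.2% and 76.6%. A 21-base exon of the GABA-B receptor gene Gabbr1 was at 88.2%, 87.8%, 57.1% and 66.7%.

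Gria2 and Snap25, named for their known exon pairs, gave smaller differences. The flip and flop exons of the AMPA receptor gene Gria2 are a mutually exclusive pair. The exon nearer to the transcript start (chr3:80691320-80691434) held 16.7%, 16.4%, 31.1% and 23.7% of 257 to 1465 reads. KCl values were above control values in Gria2, but by less than 20 points. Snap25, a vesicle fusion protein, had shares of 55.7%, 76.4%, 76.8% and 82.2% for its mutually exclusive pair, where the controls were farther apart than KCl replicate 1 and control replicate 2.

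Calcium handling genes that met the rule were Atp2b4, Mef2a and Ppp3ca. Atp2b4 pumps calcium out of the cell, and its 181-base exon (chr1:133711642-133711822) held 87.6%, 80.5%, 26.4% and 37.3% of 193 to 517 reads. A 30-base exon of calcineurin A (Ppp3ca, chr3:136932011-136932040), a calcium-activated phosphatase, held 36.5%, 36.5%, 9.52% and 8.85%. The Ppp3ca libraries lay within 1 point of each other in each group. A 24-base exon of the transcription factor gene Mef2a held 60%, 50.0%, 6.06% and 22.6%. In Kcnd3, a potassium channel gene, a 57-base exon was higher in KCl, at 35.6%, 44.2%, 89.3% and 66.7%.

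**Figure D2:**
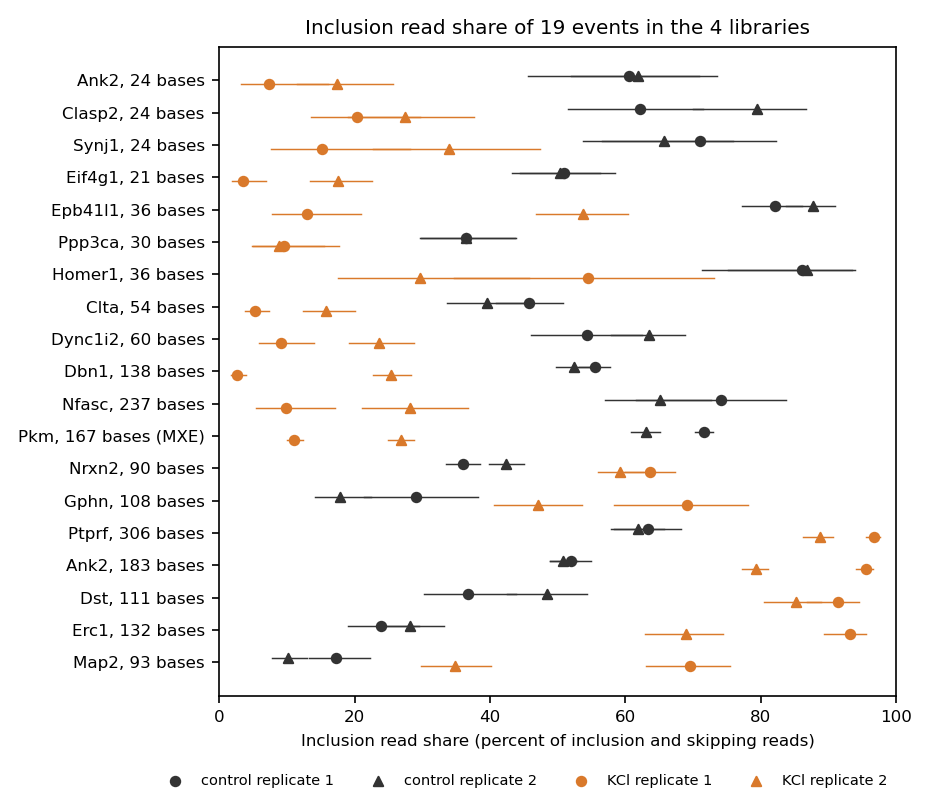
The x axis gives the inclusion read share (percent) of 19 events in each of the 4 libraries, with Wilson 95% intervals as lines, control in black and KCl in orange, replicate 1 as circles and replicate 2 as triangles. Upper events had lower shares in both KCl libraries, such as Ppp3ca at 9.52% and 8.85% against 36.5% and 36.5% in control, and the events from Nrxn2 down had higher shares in both, such as Erc1 at 93.2% and 69.0% against 23.9% and 28.2%.

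Genes outside these groups held several of the largest differences. Higher inclusion was measured in L3mbtl3, a chromatin reader (28.2%, 9.91%, 93.3% and 61%), in the GTPase regulator gene Arhgap39 (17.8%, 27.3%, 89.7% and 72.0%) and in Sbf1 (22.2%, 42.2%, 89.0% and 78.3%). Morf4l2, a subunit of a histone acetyltransferase complex, rested on more reads, with 48.1%, 51.6%, 92.8% and 81.7% of 871 to 1507 reads. The first 2 of these had under 120 reads in each library. Lower inclusion was measured in the ceramide synthase gene Cers6 (86.7%, 80.9%, 38.1% and 29.6%), in the ubiquitin ligase gene Ubr4 (71.4%, 60%, 8.7% and 13.8%) and in Fez2 (65.7%, 70.7%, 20.9% and 18.9%). The translation initiation factor gene Eif4g1 had a 21-base exon (chr16:20674786-20674806) at 50.9%, 50.4%, 3.57% and 17.5% of 163 to 270 reads.

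The read counts of each form are given as a description, since the rule used the same reads. In 115 of the 119 events with lower shares, the inclusion reads were lower in KCl and the skipping reads higher, with median log2 changes of -1.56 and 1.06. In 64 of the 72 events with higher shares the inclusion reads were higher and the skipping reads lower, with medians of 0.857 and -1.34. Over all 7111 events the medians were 0.0192 and 0.00872. In Clta the inclusion form was at 122, 55.3, 21.9 and 31.1 CPM, and the skipping form at 144, 84.8, 395 and 166. The level of the genes themselves had a median log2 change of -0.356 in the 107 genes with a lower share and -0.189 in the 66 with a higher one, against 0.03 over the 4129 genes of all events.

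**Figure D3:**
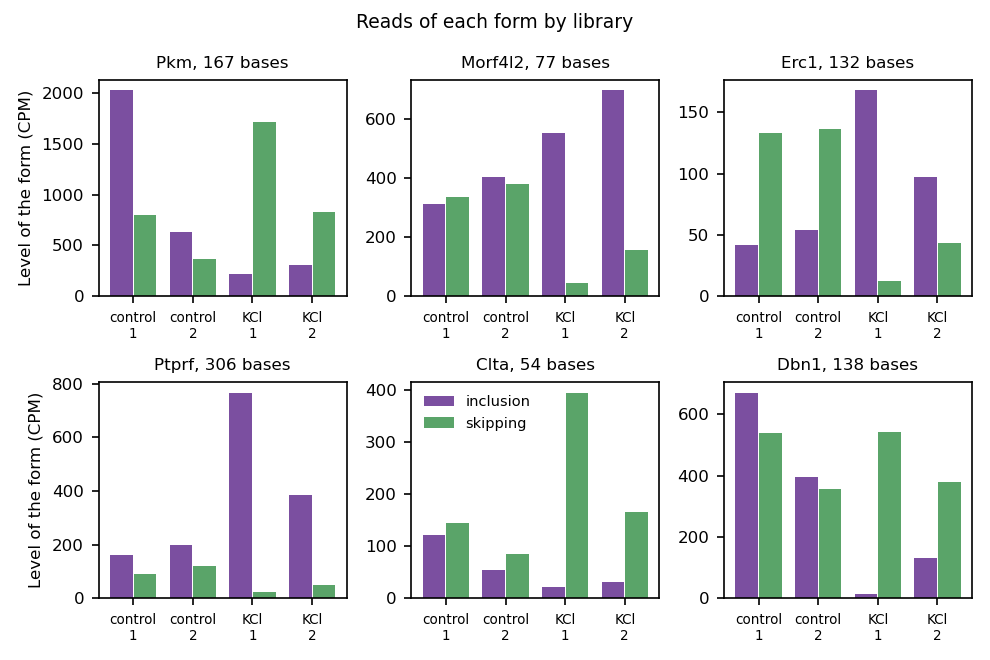
Bars give reads of the inclusion (purple) and skipping (green) form in CPM, for control replicates 1 and 2 and KCl replicates 1 and 2, in 6 events. Pkm, Clta and Dbn1 had fewer inclusion reads in KCl, while Erc1, Ptprf and Morf4l2 had more inclusion and fewer skipping reads.

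The percentage of events that met the rule is given here by type. Cassette exons did so in 158 of 4427 (3.57%), 59 higher and 99 lower, and mutually exclusive exons in 11 of 416 (2.64%). Retained introns did so in 10 of 983 (1.02%), alternative 3′ splice sites in 8 of 815 (0.982%) and alternative 5′ splice sites in 4 of 470 (0.851%). Among retained introns, 5 were higher and 5 lower, so neither direction prevailed. Examples were an intron of Trove2, an RNA-binding protein gene, at 26.1%, 29.9%, 52.0% and 52.4%, and one of the glutathione synthetase gene Gss at 56.2%, 58.7%, 28.6% and 12.1%. Alternative 5′ splice sites were lower in all 4 cases. Those of the deubiquitinase gene Usp5 stood at 72.1%, 76.9%, 31.1% and 43.8%, and those of the mitochondrial channel gene Vdac3 at 89.3%, 88.6%, 58.1% and 62.5%.

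Many of the lower cassette exons were short, a feature that the rule did not use. Of the 93 cassette exons of up to 27 bases, 22 (23.7%) had a lower share by the rule and 0 a higher one. In 64 of the 93 the share was lower in both pairs, and in 11 it was higher in both. From 28 to 60 bases, 26 of 391 exons (6.65%) were lower and 8 (2.05%) higher. Between 61 and 120 bases the numbers were 35 (2.08%) and 33 (1.96%) of 1681. Above 240 bases they were 2 and 3 of 431. Exons with a mean control share of 10% to 90% were also counted alone. Near 10% a share cannot fall far enough to meet the rule, and near 90% it cannot rise far enough. This subset thus leaves out the most extreme shares but does not remove the limit on the direction of a difference. There the lower exons were 21 of 56 (37.5%) up to 27 bases, 25 of 189 (13.2%) from 28 to 60 bases and 29 of 484 (5.99%) from 61 to 120 bases. The higher exons in the same classes were 0, 8 (4.23%) and 33 (6.82%). Median length was 66 bases in the 99 lower exons, 99 in the 59 higher ones and 122 in all 4427.

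Further short exons met the rule besides those above. A 12-base exon of the dynamin gene Dnm3 held 40.0%, 37.5%, 5.8% and 10.0%. A 15-base exon of the spectrin gene Sptan1 held 91.3%, 79.1%, 65.2% and 40.4%. A 21-base exon of the dystrobrevin gene Dtnb held 63.9%, 40.0%, 0% and 16.7%, on 30 to 44 reads. Each of these lay lower in both KCl libraries than in both controls. An 18-base exon of Nckap1, of the actin branching complex, was at 21.4%, 13.7%, 0.256% and 2.22%, below the 20-point rule because its control shares were low.

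**Figure D4:**
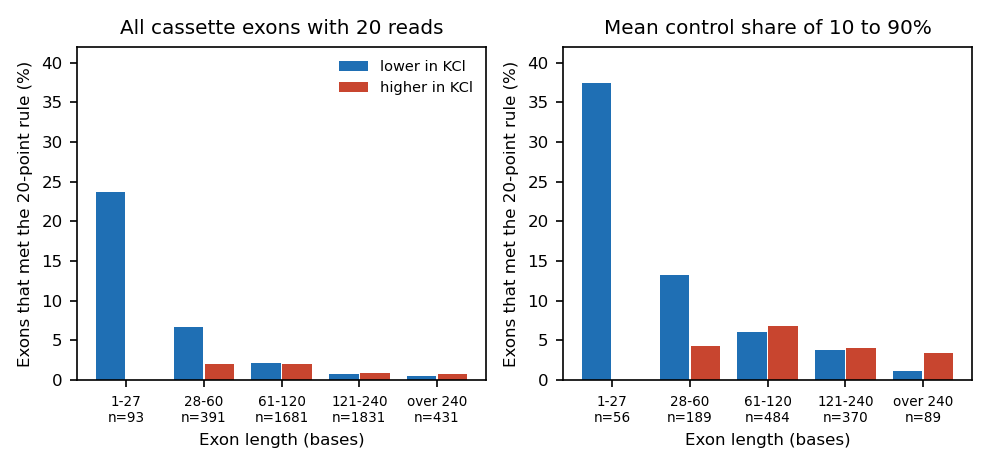
Bars give the percentage of cassette exons in each length class (x axis, bases, with the number of exons) that met the 20-point rule, lower in KCl in blue and higher in red, for all exons with 20 reads (left) and for those with a mean control share of 10 to 90% (right). The blue bars decline from 23.7% (left) and 37.5% (right) at up to 27 bases, where no exon was higher.

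Most of these exons keep the reading frame. The length was divisible by 3 in 85.9% of the lower exons, in 66.1% of the higher ones and in 46.8% of all 4427. All 22 of the lower exons of up to 27 bases had such a length, as had 82 of the 93 measured. Among longer exons with a control share of 10% to 90%, 57 of 648 (8.80%) with a length divisible by 3 were lower and 39 (6.02%) higher. For lengths not divisible by 3 the numbers were 12 of 484 (2.48%) and 20 (4.13%).

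Gene lists were compared with all events by how many of their events with 20 reads met the rule, against 2.69% in all. The lists were chosen with earlier results of these data known, so the fractions are a description only. The 2.69% covers every event type and control share, and cassette exons alone had 3.57%. The fraction was 11 of 48 (22.9%) for endocytosis and membrane traffic, 7 of 36 (19.4%) for glutamate receptors and postsynaptic scaffolds and 16 of 87 (18.4%) for ankyrins, spectrins and microtubule-associated genes. It was 6 of 45 (13.3%) for actin regulators, 4 of 33 (12.1%) for calcium genes, 2 of 17 (11.8%) for neurexins and neuroligins and 6 of 57 (10.5%) for other adhesion genes. Events of 1 gene share reads, and 5 of the 7 in the glutamate list are those of Dlgap4. The list of SR and hnRNP proteins and related splicing factors, which act in all cells, had 1 of 83 (1.20%), in the related factor Luc7l. Neuronal splicing regulators had 1 of 37 (2.70%), in Mbnl2, which is the share of all events. That 54-base exon of Mbnl2 held 59.3%, 60.2%, 26.2% and 37.4%. Genes of H3K9 methylation and HP1 had 0 of 48, cholesterol synthesis 0 of 11 and ribosomal proteins 0 of 14.

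Gene levels were taken from 1 event a gene, the one with the most reads, with both forms summed and scaled to CPM. Such a value mixes abundance with the coverage of that event. edgeR's quasi-likelihood test, without a term for the replicate number, called 0 of 6117 genes (0%), and the lowest adjusted p was 0.352. A model with that term called more genes, as given under the dependence on processing. Before adjustment 750 genes (12.3%) had a p under 0.05, 302 higher (4.94%) and 448 lower (7.32%). DESeq2 called 71. Leaving out KCl replicate 2 gave 298 genes in edgeR, leaving out control replicate 2 gave 20, and leaving out KCl replicate 1 or control replicate 1 gave 3 or 0. Log2 changes of the pairs had a Pearson r of 0.720 across genes, with SDs of 1.08 in pair 1 and 0.667 in pair 2, against 0.857 between the controls and 0.895 between the KCl libraries. The groups did not overlap in 1349 genes (22.1%) that were higher and 1298 (21.2%) that were lower in KCl. The median log2 change over all genes was 0.0429.

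Genes of synaptic transmission and excitability had lower values in KCl. The median log2 change was -1.81 for active zone and vesicle release genes (19 of 21 lower), -1.60 for voltage-gated channels (20 of 22), -1.56 for GABA synapse genes (9 of 9) and -1.50 for glutamate receptors and scaffolds (23 of 27). Groups did not overlap in 16, 16, 7 and 21 of these lower genes, against 21.2% of all genes. Synaptotagmin-1 (Syt1), the calcium sensor of release, stood at 413, 517, 48.6 and 126 CPM, and Snap25 at 585, 535, 47.2 and 188. The sodium channel gene Scn1a stood at 12.5, 22.0, 0.684 and 1.7 CPM, the last 2 being 1 and 3 reads. The glutamate receptor gene Grm7 stood at 106, 109, 3.42 and 35.1 CPM. In each of these genes both KCl libraries were below both controls, KCl replicate 1 the lowest, as it was in the summed neuron markers. Stmn2, a marker of neurons, stood at 5290, 4545, 339 and 1460.

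Lists of other neuronal genes had smaller medians. They were -1.06 for neurexins and neuroligins (6 of 6 lower), -0.921 for calcium genes (20 of 22), -0.770 for ankyrins, spectrins and microtubule-associated genes (18 of 26) and -0.746 for endocytosis genes (17 of 21). For actin regulators the median was -0.613 (13 of 18) and for other adhesion genes -0.502 (21 of 29). The neuronal noncoding RNA Meg3 was at 1065, 2155, 376 and 1059 CPM, just below the lower control in KCl replicate 2, and the list of nuclear noncoding RNAs had a median of -1.06 (6 of 7 lower). Mef2c, a transcription factor of excitatory neurons, stood at 958, 936, 42.4 and 267. Pde2a, an enzyme that degrades cyclic nucleotides, stood at 187, 108, 25.3 and 35.1.

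Cholesterol synthesis was lower in every measured member. All 10 genes were lower in KCl with groups that did not overlap, against 21.2% of all 6117 genes. The median log2 change was -1.65. Hmgcs1, an early enzyme of the pathway, stood at 2719, 1562, 554 and 699 CPM, and Fdps, which makes farnesyl diphosphate, at 1010, 413, 161 and 167. The controls were farther apart in Fdps than the KCl libraries were. The 10 genes were those measured of 19 listed. Of them, 9 were lower with an unadjusted edgeR p under 0.05, as were 7.32% of all genes.

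Promoters of this list were searched for the sterol regulatory element TCACNCCAC, the site of the SREBP factors that switch on the pathway, on both strands from 250 bases before to 50 after the start of the gene. Of 7 cholesterol genes with a promoter in the RefSeq table (GRCm38.p6), 1 held it, against 1.44% of 27025 genes. A match is a description of letters, not a bound site. The promoter of Hmgcs1 (chr13:119690101-119690400, plus strand) is shown because it is the member of the list that holds the element, with the match TCACCCCAC in capitals, at -137 from the start:
Hmgcs1: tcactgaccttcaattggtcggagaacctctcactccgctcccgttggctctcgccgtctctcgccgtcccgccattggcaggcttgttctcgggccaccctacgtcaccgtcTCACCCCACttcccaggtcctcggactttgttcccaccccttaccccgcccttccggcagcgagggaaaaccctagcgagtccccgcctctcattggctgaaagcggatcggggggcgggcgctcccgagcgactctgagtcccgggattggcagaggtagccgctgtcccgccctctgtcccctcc

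Genes induced by activity were low in number among the measured. Of 20 immediate early genes, the transcription factors and signalling genes that respond within the hour, 6 had an event, with a median log2 change of -0.324 and values in both directions. Dusp1, a phosphatase that ends MAP kinase signals, stood at 26.5, 26.8, 49.3 and 41.3 CPM, higher in both KCl libraries. Nr4a3 stood at 25.1, 59.5, 7.53 and 23.2, lower in both. The direction of this list is not stable, since its median was 0.0836 without control replicate 2. Of 19 late activity-regulated genes 5 were measured, 4 of them lower without overlap, against 21.2% of all genes. Vgf, the precursor of secreted neuropeptides, stood at 198, 152, 26.7 and 65.6 CPM. Secretogranin-2 (Scg2), of dense-core vesicles, stood at 431, 597, 99.2 and 229.

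Scg2 carries the cAMP response element TGACGTCA, the site of CREB, the factor that calcium signals activate. The element was found in 1 of 4 late genes (Scg2) and 1 of 6 immediate early genes (Dusp1) with a promoter, against 2.03% of 27025. Scg2 was lower and Dusp1 higher in both KCl libraries. The promoter of Scg2 (chr1:79439977-79440276, minus strand, GRCm38.p6) is shown as that of the carrier with more reads, with the element in capitals, at -68 from the start:
Scg2: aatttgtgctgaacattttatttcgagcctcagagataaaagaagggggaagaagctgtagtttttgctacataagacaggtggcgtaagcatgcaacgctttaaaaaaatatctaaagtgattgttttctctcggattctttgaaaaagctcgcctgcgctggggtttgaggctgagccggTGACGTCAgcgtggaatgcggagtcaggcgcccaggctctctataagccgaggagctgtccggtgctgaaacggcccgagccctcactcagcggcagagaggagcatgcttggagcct

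Splicing regulators had mixed values. Among 18 of the 24 listed neuronal regulators the median log2 change was -0.693, with 12 lower and 6 higher. Rbfox1 and Rbfox3, which bind beside neuronal exons, stood at 45.3, 29.0, 3.42 and 15.8 CPM and at 146, 305, 25.3 and 111. Both were lower in KCl, with 5 and 28 reads in the KCl libraries for Rbfox1. Srrm3, a factor for microexons, stood at 28.6, 16.1, 10.3 and 7.92 CPM on 14 to 41 reads. Ptbp1, which represses neuronal exons in other cells and is chosen here after its values were seen, stood at 68.3, 112, 136 and 201. Qk, a regulator known from glia and chosen in the same way, stood at 576, 1576, 1766 and 2283. Ptbp1 and Qk were higher in both KCl libraries, with edgeR adjusted p of 0.48 and 0.552. SR, hnRNP and related factors had a median of 0.306, with 29 of 33 higher. Srsf6 stood at 459, 403, 953 and 539 CPM, where KCl replicate 1 alone was far from the controls.

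Marker genes of other cells had higher values in KCl. The medians were 2.01 for markers of the oligodendrocyte lineage (6 of 6 higher), 1.95 for fibroblast, pericyte and endothelial markers (6 of 6), 1.13 for astrocyte markers (8 of 8) and 0.929 for progenitor markers (5 of 5). Bcas1, of young oligodendrocytes, stood at 29.3, 56.9, 400 and 315 CPM. Tagln, of smooth muscle and fibroblasts, stood at 405, 472, 2749 and 2127, and Gfap, the filament of astrocytes, at 84.3, 88.5, 370 and 194. Groups did not overlap in any of these 3 genes, as in the 22.1% of all genes that were higher without overlap. The naming rule by smallest p asked for such groups, so this is a description only. Clcf1, a cytokine gene outside the lists, stood at 14.6, 28.4, 131 and 128 CPM. The neuron markers had a median of -1.76.

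Ribosomal proteins had a median log2 change of 0.390 (9 of 9 higher), glycolysis genes -0.343 (8 of 11 lower) and genes of stress and cell death 0.642, over only 5 genes. In pairs 1 and 2 the medians were 0.271 and 0.509 for ribosomal proteins and -0.553 and -0.0681 for glycolysis. For stress and cell death they were 1.25 and 0.0549, so this list and glycolysis rest mostly on pair 1. Genes of H3K9 methylation and HP1 had a median of 0.0240, with 11 of 21 higher. The list also holds genes of DNA methylation. Of these, the de novo DNA methyltransferase gene Dnmt3a stood at 3141, 2868, 1668 and 1962 CPM. Uhrf1, which maintains DNA methylation, stood at 16, 13.9, 37.0 and 28.9. The value of Dnmt3a comes from a retained intron event (chr12:3907606-3914443), so it may include intron reads. Both genes had groups that did not overlap, in opposite directions.

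**Figure D5:**
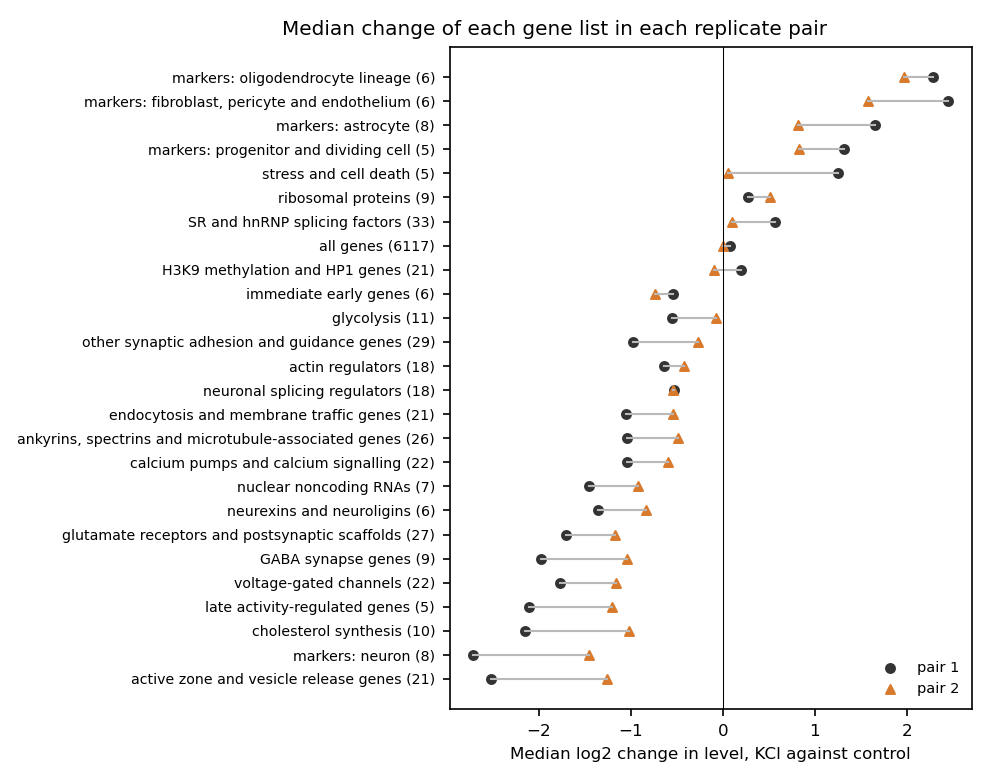
The x axis gives the median log2 change in gene level, KCl against control, in replicate pair 1 (circles) and pair 2 (triangles) for all genes and each gene list, with the number of genes measured in brackets. Neuronal, synaptic, channel and cholesterol lists lie left of 0 and the marker lists of other cells right of 0 in both pairs, and pair 1 is the farther from 0 in most lists.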

How the data were processed

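Per the file headers, the authors deposited raw counts: the reads of the inclusion form and of the skipping form of every splicing event, by library. CASAVA 1.7, BWA 0.7.12, TopHat2, MACS2 and the build mm10 appear in the submitters' processing notes, without roles. The event counter is not given in the sources used here.

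Events were matched over both replicate tables on gene, coordinates and type. Of 19447 and 22703 rows, 2634 and 3120 shared coordinates and were left out. The splicing test was the quasi-likelihood test of edgeR 4.0.16 under R 4.3.3, on both forms with a term per library, where each form averaged 1 read or more. Levels used the best-covered event of each gene, a mean of at least 1 read and TMM scaling. Adjustment was Benjamini-Hochberg with a threshold of 0.05. DESeq2 1.42.0 and limma 3.58.1 (pseudocount 0.5) were alternatives, beside other read minimums, a replicate block and leaving out each library. In simulated data with 200 changed items at a dispersion of 0.09 (splicing; 0.0941 here), the splicing test recovered 22.7% of events changed by 3 and 0.5% of those changed by 1.5 on the log2 odds scale, over 9521 and 9491 events. For levels at 0.15 (0.153 here) 42% of 4-fold changes were recovered over 6115 genes.

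The comparison, lists and rules were chosen with earlier results of these data known. Named events were the 15 per direction with the largest smaller pair difference among those meeting the 20-point rule, 2 per direction of each rarer type, up to 3 of smallest p per list, and 10 set genes. Named levels were the 12 per direction of smallest p among genes with groups that did not overlap and up to 4 per list of largest change. Further listed events that met the rule, and exons of up to 27 bases, were added after their values were seen, and some named items are left out. Some genes are not reported here. The planned motif search around exons was not run. The p-values that the authors deposited, and the H3K9me3 coverage, were not used.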

Additional observations from a re-analysis of the deposited data

How the results depend on the processing

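The count of events meeting the rule was 561 (258 higher, 303 lower) at 10 points, 52 (11 and 41) at 30 points, 263 at 10 reads and 90 at 50 reads. Without regard to pairs, by groups 20 points apart, an alternative chosen after seeing the data, it was 331 (149 and 182), of which 188 were among the 191. With 1 event a gene, the best covered, also chosen after seeing the data, 87 met the rule. At 10 points the types gave 385 cassette exons, 40 mutually exclusive pairs, 80 retained introns, 32 alternative 3′ and 24 alternative 5′ splice sites. DESeq2 called 12 events and 71 genes, where edgeR called 0 of each. Leaving out 1 library each gave 0 events in every case, and 0 to 298 genes, the most without KCl replicate 2. It leaves 1 group with a lone sample, which is assumed to vary like the other group. Of 25 list medians, 10 moved by more than the SD of the 2 pair medians without KCl replicate 2, 7 without KCl replicate 1, 5 without control replicate 1 and 6 without control replicate 2, where 1 more reversed. That was the immediate early list, which had medians down to -1.11 and up to 0.0836, and Pkm's level a log2 change from -0.89 to 0.62. The median of the H3K9 methylation list, close to 0 with all libraries, was just below 0 without KCl replicate 2. The labels do not say what a replicate number shares. With the number as a block edgeR called 167 events (61 higher, 106 lower) and 1264 genes (544 higher, 720 lower). Deviations of same-numbered libraries correlated at 0.623 in levels and 0.0573 in shares. None of 109 named events reversed direction in any of the alternatives run, and of the named levels Pkm alone did. Shares that rest on 20 to 50 reads are imprecise.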

Other observations

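Some further events missed the 20-point rule but had groups that did not overlap. Such groups were common, in 2925 of the 7111 events with 20 reads (41.1%). In Ehmt2, which codes for the H3K9 methyltransferase G9a, a retained intron (chr17:34905610-34906058) held 1.84% and 1.99% of 217 and 251 reads in control replicates 1 and 2, and 5.41% and 7.23% of 259 and 249 reads in KCl. The edgeR adjusted p was 0.491. An intron of Dusp1 (chr17:26506985-26507719) held 26.3%, 28%, 54.2% and 47.9% in the same order. A 90-base exon of Srsf9, which codes for a splicing factor, held 14.9%, 11.4%, 2.62% and 3.52%. An alternative 3′ splice site of syntaxin-1A (Stx1a) held 1.52%, 2.89%, 43.5% and 10.0%, where the high value of KCl replicate 1 rests on 23 reads.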
